A study of Oryctolagus cuniculus with 8 samples.

Results

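The miRNAs described here are those of the muscle miRNA genes miR-143, miR-145, miR-1, miR-133a, miR-133b, miR-206 and miR-499, both arms, in extracellular vesicles of the rabbit oviduct and uterus. They were found by name among the 579 mature miRNA names of the table, with 1 row kept per name. That gave 14 names from 7 hairpins, each on a single row, of which 8 had at least 1 read and 6 had none in any library. The 8 were ocu-miR-143-3p, ocu-miR-143-5p, ocu-miR-145-3p, ocu-miR-145-5p, ocu-miR-1-3p, ocu-miR-133a-3p, ocu-miR-206-3p and ocu-miR-499-5p, written below without the prefix of the species. None of these 8 shared an identical read profile with another name.

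A miRNA is a short RNA cut from a hairpin precursor, whose 2 sides give a 5p and a 3p product, and it lowers the output of mRNAs that match its seed. miR-143 and miR-145 are made from 1 primary transcript and are abundant in smooth muscle cells and fibroblasts, where serum response factor and myocardin drive them and they favour the contractile state. miR-1 and miR-133a are made together in heart and skeletal muscle and, at lower levels, in smooth muscle, while miR-206 and miR-133b belong to skeletal muscle and miR-499 lies within the myosin gene MYH7B. The walls of the oviduct and the uterus hold smooth muscle beneath an epithelium that faces the lumen. In the RefSeq annotation of the mOryCun1.1 assembly, MIR143 and MIR145 were neighbours within the span of IL17B, MIR1-2 and MIR133A were neighbours within MIB1, MIR133B lay next to MIR206, and MIR499 lay within MYH7B.

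The samples were wild-type California x New Zealand white does, 21 in all, sexually mature and multiparous; their age was not given in the labels. All were synchronized with eCG, a gonadotropin (25 IU), and ovulation was induced with a GnRH analogue (20 µg) after an interval of 48 h. Tracts were flushed after at least 14 to 15 h, and vesicles were purified from the cleared flushes by size exclusion. The oviductal group had 5 libraries of 3 pooled animals each, and the uterine group had 3 libraries of 5 pooled animals each, so every value is that of a pool. The flush volume was 1.0 mL for oviductal and 2.2 mL for uterine samples. Volume, pool size and fluid therefore cannot be told apart. Pools needed more animals than the 21 does, so some pools must share does, and the labels do not give which ones. The main test treated libraries as independent, and p-values measure the spread between pools only. Libraries are called by the number in their title (uterine replicates 12, 3 and 4). Depth ran from 42684 to 569087 miRNA reads among oviductal and from 232546 to 479865 among uterine libraries, and oviductal replicates 2 and 3 were the shallowest. Levels are CPM, the reads of a miRNA per 1000000 miRNA reads of its library. In these shallow libraries 3 reads, the limit that a count of 0 allows, stood for 63.0 and 70.3 CPM, against 5.27 CPM in oviductal replicate 5. Intervals given for single libraries are exact 95% binomial intervals. For 0 reads such intervals reach further than 3 reads, to 77.5 and 86.4 CPM in oviductal replicates 2 and 3. The intervals and the limit of 3 reads cover counting error only. The number of vesicles from a cell type and the miRNA carried per vesicle cannot be told apart in such data.

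In uterine vesicles the smooth muscle miRNA miR-143-3p rose, and it was the 1 of the 5 tested members that passed the test over all miRNAs. The striated and smooth muscle miRNA miR-1-3p lay just outside the threshold of 0.05. The 3 uterine pools did not carry these miRNAs in the same proportions: uterine replicate 4 was richest in miR-143 and miR-145, and uterine replicate 12 in miR-1 and miR-206. miR-133a-3p, miR-143-5p and miR-499-5p were below the filter on low counts and were not tested.

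miR-143-3p was found in every library and was the most abundant member in each. The oviductal libraries held 4371, 4139, 3397, 3457 and 3669 CPM in replicates 1 to 5, from 1930, 197, 145, 880 and 2088 reads. The uterine libraries held 22297 CPM in replicate 12, 4735 CPM in replicate 3 and 44325 CPM in replicate 4, from 5185, 2272 and 12913 reads. The oviductal values lay close together and all below the uterine ones, but uterine replicate 3 was only just above oviductal replicate 1. The counting intervals of those 2 libraries, 4542 to 4933 and 4179 to 4570 CPM, overlapped. Scaled by TMM, a method that corrects for differences in composition between libraries, the gap was wider, with at most 4770 CPM in oviductal and at least 7112 CPM in uterine libraries.

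The mean of miR-143-3p was 3807 ± 430 CPM in oviductal (SD, n = 5) and 23785 ± 19837 CPM in uterine vesicles (SD, n = 3). The log2 fold change was 2.81 ± 0.48 (SE), with an edgeR adjusted p of 0.00261, the smallest of the 178 tested miRNAs. Over all tested miRNAs 1.69% passed at an adjusted p under 0.05, all of them higher in the uterus, against 1 of 5 members. Calls in both directions were made by DESeq2 (9 higher, 2 lower) and without a filter on low counts (12 higher, 1 lower). The same held without uterine replicate 3 (12 higher, 15 lower) and without uterine replicate 4 (8 higher, 1 lower). Left out singly, no library ended the call, with edgeR adjusted p from 2.33e-05 to 0.0341. With both shallow oviductal libraries left out the log2 fold change was 2.74 and the edgeR adjusted p 0.171. That setting called 0 miRNAs, with 20 at an unadjusted p under 0.05.

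The 2 groups also differed in how evenly miR-143-3p was spread among pools. In CPM without TMM, its highest oviductal library was 1.29 times the lowest, and its highest uterine library was 9.36 times the lowest. Scaled by TMM it ran from 2637 to 4770 CPM in oviductal and from 7112 to 36704 CPM in uterine libraries. The contrast was smaller there. Without TMM, the SD of log2 CPM, with 1 CPM added, was 0.16 among oviductal libraries, the smallest but for 2. The median of the 178 tested miRNAs was 0.89. Among uterine libraries the SD was 1.65, against a median of 1.55. By rank within each library, miR-143-3p stood at places 27 to 35 in the oviductal libraries. It stood at place 11 in uterine replicate 12, 22 in replicate 3 and 7 in replicate 4. The closer oviductal values and the uneven uterine ones, in CPM without TMM, are visible in the plot of members by library.

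**Figure D1:**
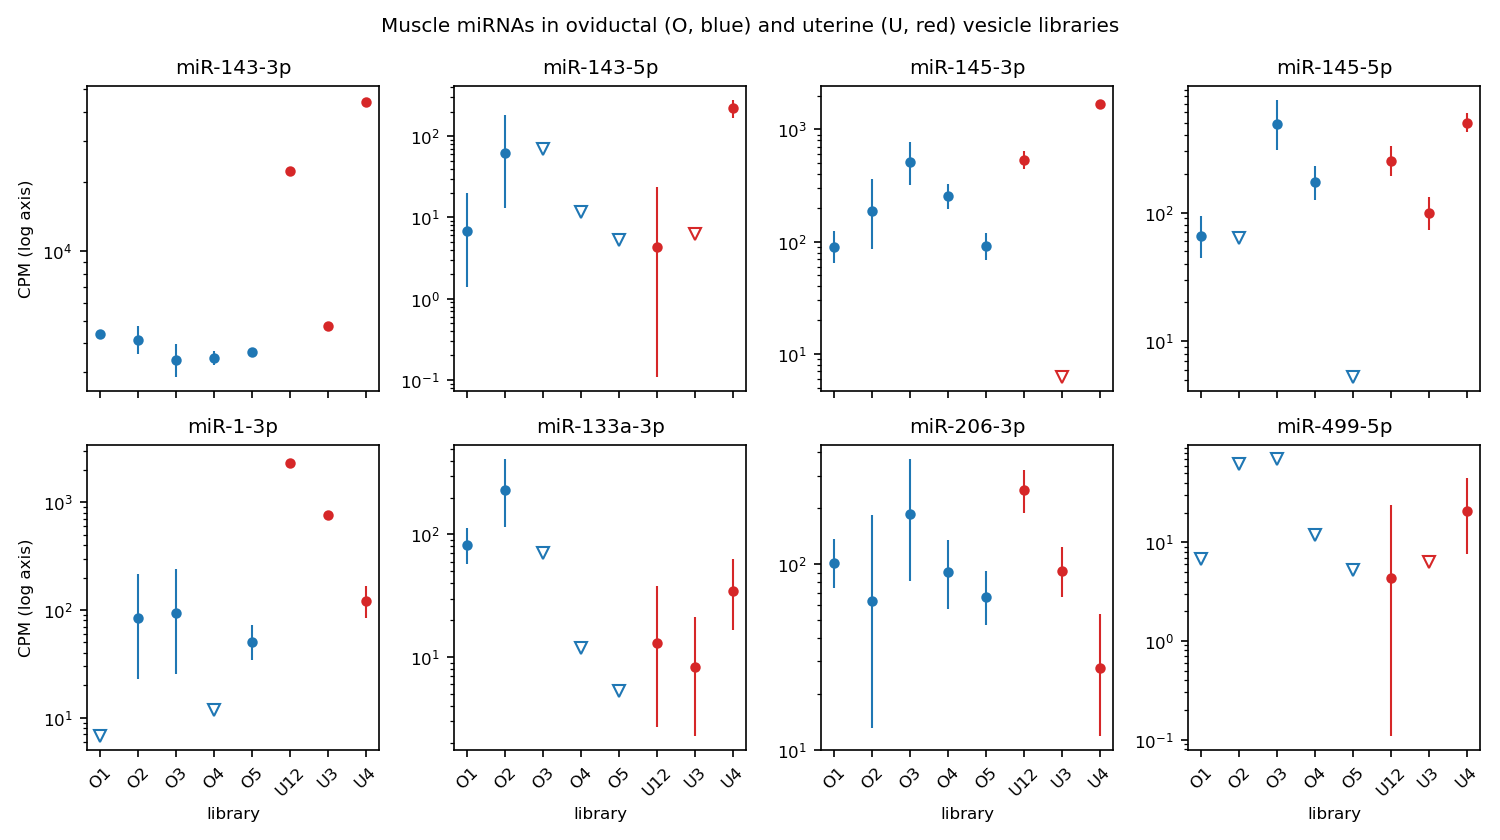
CPM (log axis, a scale of its own in each panel) of the 8 members with reads in the 5 oviductal (O) and 3 uterine (U) libraries, with exact 95% binomial intervals; open triangles mark libraries with 0 reads, drawn at the CPM of 3 reads. miR-143-3p and miR-1-3p are above every oviductal library in all 3 uterine ones, while among the uterine libraries replicate 4 is highest for miR-143-3p and lowest for miR-1-3p.

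The opposite arm, miR-143-5p, is the passenger strand of the hairpin and was rare. It had 3 reads in oviductal replicate 1, 3 in oviductal replicate 2 and 0 in oviductal replicates 3, 4 and 5. In the uterine libraries it had 1 read in replicate 12, 0 in replicate 3 and 64 in replicate 4, so that 1 library held 64 of its 71 reads. That is 220 CPM in uterine replicate 4, with an interval of 169 to 281 CPM. The interval of oviductal replicate 2, 13.0 to 184 CPM, overlapped it, and 0 reads in oviductal replicate 3 allow up to 70.3 CPM. Without a filter on low counts its log2 fold change was 2.93 ± 1.94 (SE), with an edgeR adjusted p of 0.456.

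As a share of the reads of miR-143-3p, the 5p arm made up 0.496% in uterine replicate 4 and 0.0193% in uterine replicate 12. It made up 0.155% in oviductal replicate 1 and 1.52% in oviductal replicate 2, where the share rests on 3 reads. The 3p arm was the main product in every library. With 0 reads of miR-143-5p in 3 oviductal libraries and 1 uterine library, the ratio of the arms there depends only on the reads of miR-143-3p and on the 0.5 reads added to each arm. Computed so, the log2 ratio was -9.18 ± 2.40 in oviductal (SD, n = 5) and -10.5 ± 2.49 in uterine libraries (SD, n = 3). The difference was -1.33, with p = 0.5 by exact two-sided permutation (56 arrangements, smallest possible p 0.0179) and 0.5 when adjusted over the 3 ratios examined. The difference was -0.80 with 0.1 reads added and -1.53 with 1 read added. After adjustment a single ratio alone could reach at best 0.0536, so the design could hardly pass the threshold.

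miR-145, made from the same transcript as miR-143, gave reads from both arms. miR-145-3p stood at 90.6, 189, 515, 255 and 91.4 CPM in oviductal replicates 1 to 5, from 40, 9, 22, 65 and 52 reads. In the uterine libraries it stood at 538 CPM in replicate 12 and 1679 CPM in replicate 4, from 125 and 489 reads, and had 0 reads in replicate 3. The groups overlapped, since uterine replicates 12 and 4 were above all oviductal libraries and replicate 3 below them all. A count of 0 in uterine replicate 3 allows up to 6.25 CPM, while the median of the other libraries would give 123 reads at its depth. Such a 0, where the median of the other libraries gives at least 10 reads, was found in at least 1 library for 44 of the 178 tested miRNAs, 24.7%. Of the 59 such zeros 32 were in uterine replicate 12, 10 in uterine replicate 3, 5 in uterine replicate 4 and 12 in the oviductal libraries. Besides miR-145-3p those miRNAs held 2 other members, miR-145-5p in oviductal replicate 5 and miR-1-3p in oviductal replicates 1 and 4.

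The means of miR-145-3p were 228 ± 175 CPM in oviductal (SD, n = 5) and 739 ± 857 CPM in uterine vesicles (SD, n = 3). The log2 fold change of 1.85 ± 1.14 (SE) did not pass (edgeR adjusted p 0.488). The result turned on uterine replicate 3: without it the log2 fold change was 2.29 and passed, with an edgeR adjusted p of 0.0456, in a setting where 6% of miRNAs passed as higher. By limma-voom, with all libraries, the value was -0.44 (adjusted p 0.889). The spread of miR-145-3p among the uterine libraries, an SD of 5.77 of log2 CPM with 1 CPM added, was the largest of all 178 tested miRNAs. It rests on the 0 reads of uterine replicate 3, and with zeros set to 3 reads, a setting chosen after seeing the data, it was 4.26 and still the largest.

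The other arm, miR-145-5p, stood at 65.7, 492 and 173 CPM in oviductal replicates 1, 3 and 4 and had 0 reads in replicates 2 and 5. Its uterine values were 254 CPM in replicate 12, 100 CPM in replicate 3 and 501 CPM in replicate 4. The groups overlapped over most of their range. The means were 146 ± 206 CPM (SD, n = 5) and 285 ± 202 CPM (SD, n = 3), and the log2 fold change of 1.30 ± 1.30 (SE) did not pass (edgeR adjusted p 0.753). It was 3.88 by limma-voom (adjusted p 0.0869), and by edgeR 2.37 without oviductal replicate 3 and 2.04 without oviductal replicates 2 and 3 together (adjusted p 0.469 and 0.785).

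The arms of miR-145 did not keep 1 proportion. In the 5 libraries with reads of both, miR-145-5p had 72.5%, 95.5% and 67.7% as many reads as miR-145-3p in oviductal replicates 1, 3 and 4. It had 47.2% and 29.9% as many in uterine replicates 12 and 4. In the remaining 3 libraries 1 arm was missing: oviductal replicates 2 and 5 had 9 and 52 reads of 3p and none of 5p, and uterine replicate 3 had 48 reads of 5p and none of 3p. The ratio of these arms was not tested.

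Against miR-143-3p, its partner on the transcript, miR-145-3p had 2.07%, 4.57%, 15.2%, 7.39% and 2.49% as many reads in oviductal replicates 1 to 5. It had 2.41% in uterine replicate 12, 3.79% in uterine replicate 4 and 0 reads in uterine replicate 3. The 2 uterine libraries with reads lay within the oviductal range. The log2 ratio was -4.34 ± 1.18 in oviductal (SD, n = 5) and -7.41 ± 4.11 in uterine libraries (SD, n = 3). The difference of -3.07 had an exact two-sided permutation p of 0.0893 (0.268 when adjusted over the 3 ratios), and without uterine replicate 3 it was -0.70.

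Of the members linked to striated muscle, miR-1-3p had the highest mean level in uterine vesicles, and the source of its reads was not tested. In the oviductal libraries it had 84.0, 93.7 and 51.0 CPM in replicates 2, 3 and 5, from 4, 4 and 29 reads, and 0 reads in replicates 1 and 4. The 0 reads of replicates 1 and 4 allow up to 6.79 and 11.8 CPM. The uterine libraries had 2322 CPM in replicate 12, 754 CPM in replicate 3 and 120 CPM in replicate 4, from 540, 362 and 35 reads. All uterine values lay above all oviductal ones, but the interval of uterine replicate 4, 83.7 to 167 CPM, overlapped those of oviductal replicates 2 and 3. Groups that do not overlap, with the uterus higher, were found for 4.49% of the tested miRNAs and for 2 of the 5 tested members, miR-1-3p and miR-143-3p.

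The means of miR-1-3p were 45.7 ± 44.7 CPM in oviductal (SD, n = 5) and 1066 ± 1133 CPM in uterine vesicles (SD, n = 3). Its log2 fold change of 5.50 ± 1.34 (SE) was the highest of the 178 tested miRNAs and its p the fourth smallest, but the edgeR adjusted p of 0.0504 did not pass. It passed in 8 of 18 alternatives, the DESeq2 test among them (adjusted p 0.0378), where 5.14% of miRNAs passed as higher. Leaving out uterine replicate 12, the library with 32 of the 59 zeros counted above, gave 4.16, with an edgeR adjusted p of 0.377. The part of those zeros in the result was not tested. With limma-voom it was 5.57 (adjusted p 0.0584). Its 5p arm, miR-1-5p, had 0 reads in every library, which allows up to 2.21 CPM over the oviductal and 2.99 CPM over the uterine group.

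miR-206-3p, the skeletal muscle miRNA with the same seed as miR-1, was found in every library at a low level. It stood at 102, 63.0, 187, 90.3 and 66.8 CPM in oviductal replicates 1 to 5, from 45, 3, 8, 23 and 38 reads. The uterine libraries had 249 CPM in replicate 12, 91.7 CPM in replicate 3 and 27.5 CPM in replicate 4, from 58, 44 and 8 reads. Uterine replicate 12 was the highest of all libraries and uterine replicate 4 the lowest, so the uterine values spanned the oviductal ones. The means were 102 ± 50.5 CPM in oviductal (SD, n = 5) and 123 ± 114 CPM in uterine vesicles (SD, n = 3). The log2 fold change was 0.84 ± 1.07 (SE; edgeR adjusted p 0.802), and -0.25 without uterine replicate 12.

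The mature sequences of miR-1 and miR-206 are close, so reads could in principle be shared between them. Oviductal replicates 1 and 4 had 45 and 23 reads of miR-206-3p and none of miR-1-3p. In uterine replicates 12, 3 and 4, miR-206-3p had 10.7%, 12.2% and 22.9% as many reads as miR-1-3p. In oviductal replicates 2, 3 and 5 it had 75%, 200% and 131% as many. The sources used here do not state how reads that match both were assigned, so values of either are uncertain to that extent.

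miR-133a-3p, the partner of miR-1 in heart and skeletal muscle, did not show the uterine values of miR-1-3p. It had 36 and 11 reads in oviductal replicates 1 and 2, or 81.5 and 231 CPM, and 0 reads in oviductal replicates 3, 4 and 5. The uterine libraries had 3, 4 and 10 reads in replicates 12, 3 and 4, or 12.9, 8.34 and 34.3 CPM. Both oviductal libraries with reads were above every uterine library, and 0 reads in oviductal replicate 5 allow up to 5.27 CPM, below every uterine value. The means were 62.5 ± 101 CPM (SD, n = 5) and 18.5 ± 13.9 CPM (SD, n = 3). Without a filter on low counts the log2 fold change was -1.33 ± 1.90 (SE; edgeR adjusted p 0.754).

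The cardiac and slow muscle miRNA miR-499-5p had 7 reads in all, 6 in uterine replicate 4 and 1 in uterine replicate 12. It had 0 reads over the whole oviductal group, which allows up to 2.21 CPM. The remaining 5 names, miR-133a-5p, miR-133b-3p, miR-133b-5p, miR-206-5p and miR-499-3p, had 0 reads in every library, like miR-1-5p. Over the oviductal group miR-206-3p had 117 reads, miR-133a-3p 47 and miR-1-3p 37. Over the uterine group miR-1-3p had 937 reads, miR-206-3p 110 and miR-133a-3p 17.

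The order of the members by mean CPM differed between the groups below the first place. In oviductal vesicles miR-143-3p was followed by miR-145-3p, miR-145-5p, miR-206-3p, miR-133a-3p, miR-1-3p and miR-143-5p, at 228, 146, 102, 62.5, 45.7 and 14.0 CPM. In the uterine order the next were miR-1-3p, miR-145-3p, miR-145-5p, miR-206-3p, miR-143-5p, miR-133a-3p and miR-499-5p, at 1066, 739, 285, 123, 74.7, 18.5 and 8.30 CPM. In both groups miR-143-3p lay above all other members without overlap between libraries, and all later neighbours overlapped. miR-1-3p held the sixth place in the former and the second in the latter. Mature miRNAs are of nearly 1 length, so CPM need no length scaling, but adapter ligation differs between sequences and the order is one of reads.

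Summed over the 14 names, the members held 0.388% to 0.477% of the reads of the oviductal libraries and 2.57%, 0.569% and 4.69% of those of uterine replicates 12, 3 and 4. miR-143-3p made up 72.5% to 94.6% of that sum in oviductal libraries and 83.2% to 94.5% in uterine ones. The log2 fold changes of the 5 tested members were all positive (median 1.85), while 48.9% of all 178 tested miRNAs were positive, with a median of -0.02. Scaling by library totals alone moved the median of all miRNAs to -0.31 and that of the members to 1.73. With upper-quartile factors the medians were 0.19 and 2.12.

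**Figure D2:**
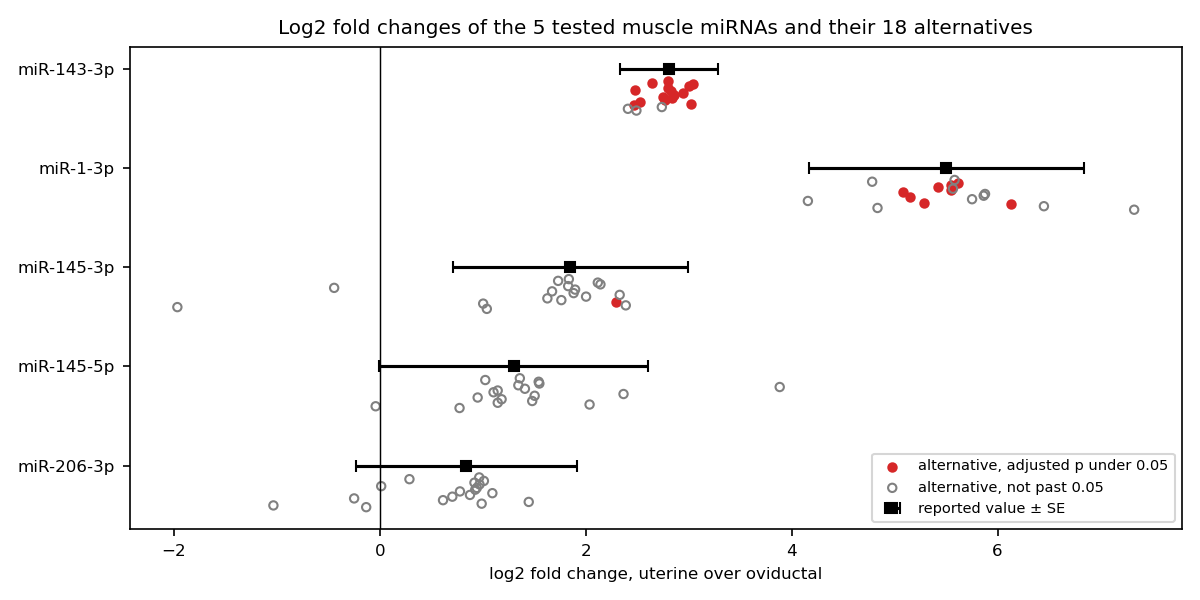
Log2 fold changes (uterine over oviductal) of the 5 tested members, with black squares and bars for the reported value ± SE and circles for the 18 alternative settings, filled where the adjusted p was under 0.05. The values of miR-143-3p stay between 2.41 and 3.04 and those of miR-1-3p between 4.16 and 7.33, while miR-145-3p, miR-145-5p and miR-206-3p cross 0 in at least 1 setting.

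The uterine pools differed in which member they were rich in. miR-143-3p and both arms of miR-145 were highest in uterine replicate 4, next in replicate 12 and lowest in replicate 3, or 0 there. miR-1-3p and miR-206-3p were highest in replicate 12, next in replicate 3 and lowest in replicate 4. From the highest to the lowest pool the level differed 19.3-fold for miR-1-3p and 9.08-fold for miR-206-3p. Of the 178 tested miRNAs, 24.2% had the first order of uterine libraries and 8.99% the second, so both orders are shared with miRNAs outside the muscle genes.

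The ratio of miR-1-3p to miR-143-3p, which needs no scaling between libraries, shows this difference within each pool. miR-1-3p had 10.4% as many reads as miR-143-3p in uterine replicate 12, 15.9% in uterine replicate 3 and 0.271% in uterine replicate 4. The ratio was 58.8 times as high in uterine replicate 3 as in uterine replicate 4. In oviductal replicates 2, 3 and 5 it was 2.03%, 2.76% and 1.39%, and replicates 1 and 4 had no reads of miR-1-3p. The log2 ratio, with 0.5 reads added, was -7.86 ± 3.23 in oviductal (SD, n = 5) and -4.81 ± 3.22 in uterine libraries (SD, n = 3). The difference of 3.06 had an exact two-sided permutation p of 0.25 (0.375 when adjusted over the 3 ratios).

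**Figure D3:**
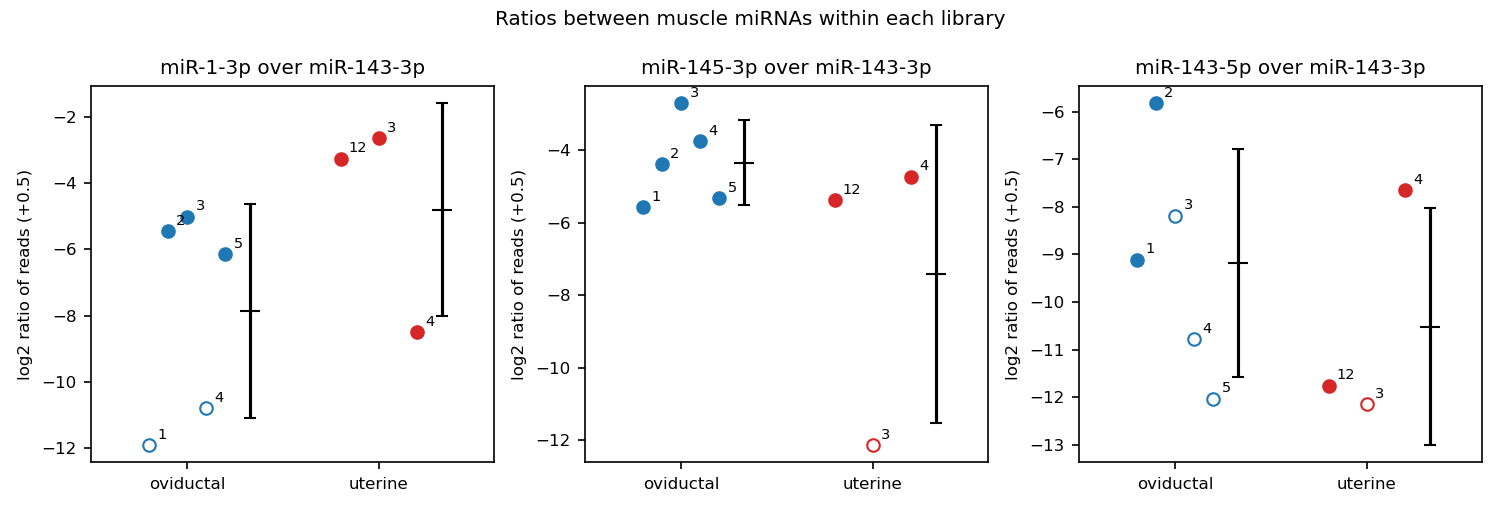
Log2 ratios of reads, with 0.5 added, of 3 members to miR-143-3p in each library, numbered by replicate, with open circles where the first miRNA had 0 reads and black bars for mean ± SD. Uterine replicates 12 and 3 are highest for miR-1-3p over miR-143-3p, and uterine replicate 4 lies among the oviductal libraries.

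Across the 8 libraries the correlations between tested members ran from -0.257 to 0.464, with counts of 0 included. Pearson's r of log2 CPM, with 1 CPM added, was 0.456 between miR-143-3p and miR-145-3p, 0.442 between miR-143-3p and miR-145-5p and 0.464 between miR-143-3p and miR-1-3p. It was 0.205 between miR-1-3p and miR-206-3p and -0.257 between miR-143-3p and miR-206-3p. The arms of miR-145 had an r of 0.212 with each other. With miR-1-3p the 3p arm had -0.133 and the 5p arm 0.068, and with miR-206-3p they had -0.067 and 0.268. Of the 173 other tested miRNAs the 3 most like miR-143-3p were miR-708-3p, miR-146a-5p and miR-27b-3p, with r of 0.896, 0.886 and 0.874. The 3 most like miR-1-3p were miR-140-3p, miR-379-5p and miR-151-3p, with r of 0.882, 0.809 and 0.769. These values describe 8 libraries that differ in depth and fall into 2 groups, and were not tested. Counts of 0 enter as extreme points: miR-1-3p in oviductal replicates 1 and 4, miR-145-5p in oviductal replicates 2 and 5 and miR-145-3p in uterine replicate 3. Low r therefore does not show that members vary apart, and the part of these zeros was not tested.

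Among other miRNAs linked to muscle and to stromal cells, in 3 lists with 9, 2 and 6 tested names, 1 passed the test. Over all 178 tested miRNAs 1.69% passed. Of 16 names in the list of the smooth muscle phenotype 9 were tested, 5 with positive and 4 with negative values, with a median log2 fold change of 0.26 and none past the threshold. Its most abundant names were miR-26a-5p at -0.03, miR-21-5p at 0.60 and miR-24-3p at -0.01. The list of other striated muscle miRNAs had 2 tested names, miR-486-5p at 0.44 and miR-378-3p at 0.03, while all 4 names of the cardiac miR-208a and miR-208b had 0 reads. miR-486 is also an erythrocyte miRNA and stands in both lists. In the mesenchymal and stromal list 5 of 6 tested names were positive, with a median of 1.68, while 48.9% of all tested miRNAs were positive. One of them, miR-140-3p of cartilage and stromal cells, passed at 4.02 ± 0.86 (SE; edgeR adjusted p 0.0112). miR-199a-3p stood at 1.84 and miR-29a-3p at 0.09, neither past the threshold.

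Markers of other cells that could release vesicles into the fluids were summed in the same way. The epithelial list held 5.42% to 6.19% of oviductal reads and 0.722%, 3.02% and 1.98% of the reads of uterine replicates 12, 3 and 4. Of its 8 names 6 had reads, with miR-205-3p and miR-375-5p at 0, and 4 of 5 tested names were negative, none past the threshold. Of all tested miRNAs 48.9% were positive. The most abundant epithelial names had log2 fold changes of -1.13 (miR-200c-3p), -1.31 (miR-375-3p) and -2.24 (miR-205-5p). The multiciliated list held 2.77% to 6.12% of oviductal reads and 0.495%, 3.38% and 1.33% in the same uterine order, with miR-449a-3p and miR-449b-3p at 0. Uterine replicate 3 was thus the uterine pool with the highest epithelial and multiciliated shares and the lowest share of the muscle members. The most abundant multiciliated names had log2 fold changes of -0.39 (miR-34c-5p), -1.05 (miR-34b-3p) and -0.18 (miR-34b-5p), none past the threshold.

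The erythrocyte list, 4 of 5 names with reads and miR-486-3p at 0, held 0.0922% to 0.288% of oviductal reads and 0.362%, 0.123% and 0.768% of those of uterine replicates 12, 3 and 4. The leukocyte list, 6 of 10 names with reads, held 0.102% to 0.245% and 0.144%, 0.0786% and 0.367%. Its miR-142-5p, miR-146a-3p, miR-150-3p and miR-155-3p were at 0. The most abundant leukocyte names had log2 fold changes of 0.03 (miR-155-5p), 0.94 (miR-150-5p) and 2.95 (miR-146a-5p). Those of the erythrocyte list had 0.44 (miR-486-5p) and 2.16 (miR-451-5p), and no name of either list passed. The liver miRNA miR-122-5p held 0.00615% to 0.0588% of oviductal reads and 0.306%, 0.0579% and 0.0299% of uterine ones. The blood lists were thus highest in uterine replicate 4, as miR-143-3p was, and miR-122-5p in uterine replicate 12, as miR-1-3p was. Replicate 4 was often the highest uterine pool: 24.2% of the 178 tested miRNAs had the order 4, 12, 3 and 30.9% the order 4, 3, 12. The smooth muscle phenotype, other striated muscle and mesenchymal lists were also highest there among uterine pools, at 5.81%, 0.570% and 0.538%. The part of the blood lists and of miR-122-5p in the results for the muscle miRNAs was not tested. No name of the endothelial marker miR-126 was matched.

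**Figure D4:**
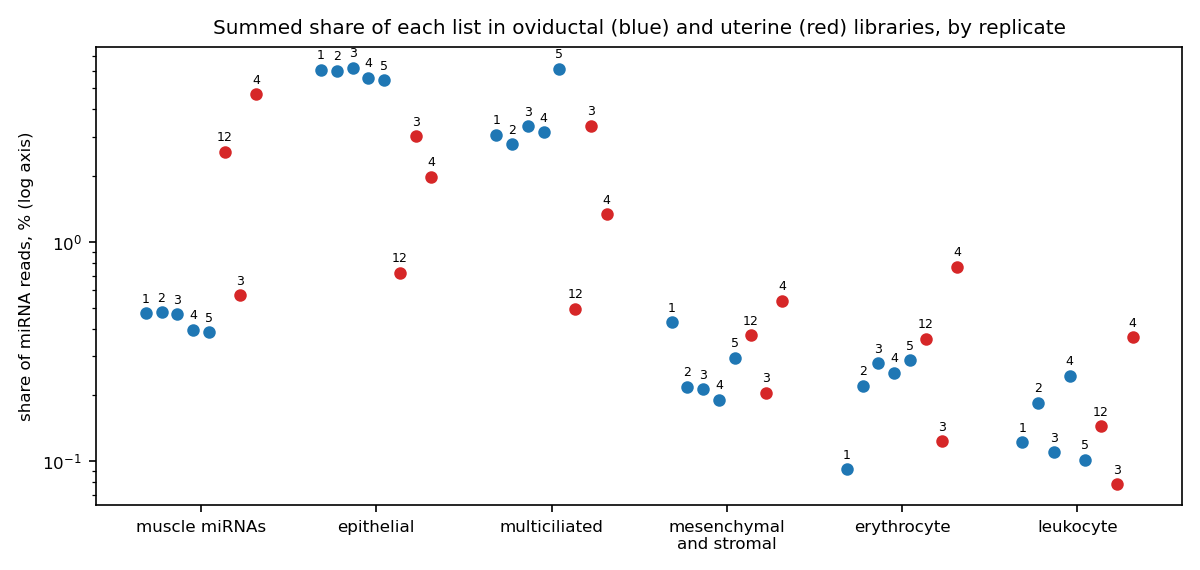
Share of miRNA reads (%, log axis) held by the 14 muscle names and by 5 lists of other cell types in each oviductal (blue) and uterine (red) library, numbered by replicate. The muscle share is 2.57%, 0.569% and 4.69% in uterine replicates 12, 3 and 4, and the epithelial share of all 3 lies below that of every oviductal library.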

How the data were processed

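Small RNA of vesicle pools was sequenced, and the deposited table gives raw read counts per mature miRNA and precursor, beside the authors' RPM (reads per 1000000), which equalled the count over the column sum within 0.005. Per the submitters' processing notes the build was OryCun2.0 and FastQC was run; the sources used here do not name the aligner or the counter. The 615 rows were reduced to 579 names, keeping for each the one with most reads. Library sums over these rows are the base of CPM and differ from the sums behind the RPM.

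The comparison used edgeR 4.0.16 (robust quasi-likelihood test, TMM, filterByExpr, Benjamini-Hochberg, threshold 0.05) in R 4.3.3 over 178 miRNAs. The procedure was run on counts simulated with the spread fitted to these data. No zeros were added there, so the simulation cannot show how the test deals with the zeros counted above. SE are the size of the log2 fold change over the root of F. The 3 ratios used exact two-sided permutation over 56 arrangements. Alternatives were DESeq2 1.42.0, limma 3.58.1 (voom), other scalings, no filter, summed rows, replicate blocks and libraries left out. All members were named, with up to 3 of the most abundant names of each of 9 marker lists and the 3 miRNAs most like miR-143-3p and miR-1-3p. miRNAs named for having 0 reads were chosen after their values were seen. Members, lists and alternatives were chosen with earlier results of these data known. Depth ran from 42684 to 569087 reads per library. Sequences were not used here.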

Additional observations from a re-analysis of the deposited data

Results flagged for a closer look

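miR-143-5p in oviductal replicate 2, at 63.0 CPM, was above the other 4 oviductal libraries, at 0 to 6.79 CPM. Its gap to the nearest of them was 0.892 of the range of the group, above Dixon's critical value of 0.710 for 5 samples. The value rests on 3 reads in a shallow library, which is the limit that a count of 0 allows. The 0 reads of oviductal replicate 3 allow up to 70.3 CPM, so replicate 2 is not shown to differ from it. Of 11 sets of oviductal values examined this was the only one past that value, and chance passes about 1 in 20.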

How the results depend on the processing

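The count of 3 miRNAs past the threshold was 1 with library totals only and by limma-voom, 6 with upper-quartile factors, 7 with repeated rows summed, 11 by DESeq2 and 13 without a filter. It was 1 to 27 with single libraries left out (1 if oviductal replicate 2 or uterine replicate 12 was removed, 9 for uterine replicate 4 and 27 for uterine replicate 3) and 0 without oviductal replicates 2 and 3 together.

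With a replicate block by title number or by library-name number the count was 0 in both, with 8 and 11 miRNAs at an unadjusted p under 0.05. Only numbers 3 and 4 occur in both groups by title, and 1, 3 and 4 by library name. Fold changes in these fits rest on those libraries alone. Few libraries remain to measure the spread, so the lost calls and changed signs there decide nothing about stability. Deviations from the group means had r of -0.170 and -0.0831 for numbers 3 and 4, and -0.153 for oviductal replicate 1 with the uterine library named 1. All pairs of an oviductal and a uterine library lay between -0.170 and 0.195. Such values show no pairing by number, but they cannot decide which pools share does. With the title block miR-143-3p was at 2.41, miR-145-3p at -1.97, miR-145-5p at -0.040 and miR-206-3p at -1.03, and with the library-name block miR-143-3p was at 2.49 and miR-206-3p at -0.13.

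miR-143-3p was past the threshold in 15 of 18 alternatives and miR-1-3p in 8, each with a positive value in all 18. miR-145-3p turned to -0.44 by limma-voom and miR-206-3p to -0.25 without uterine replicate 12, in a range of -0.25 to 1.45 over single libraries left out. The 3 ratios could hardly pass at this number of libraries, so their calls say nothing about stability. The difference in the arm ratio of miR-143 turned to 0.12 without oviductal replicates 2 and 3. Where a direction or call changed the cause was not tested, and settings that left libraries out also had fewer of them. Depth limits members under about 70 CPM in the shallow libraries.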
